A study of Mus musculus with 16 samples.

Results

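The 9 genes of insulin signalling and insulin-stimulated glucose uptake followed here across 4 groups of mice were Insr, Irs1, Irs2, Grb14, Pik3r1, Akt2, Tbc1d4, Slc2a4 and Trarg1. They are the rows of the deposited gene table with these symbols, 9 of its 45777 genes, and all 9 were among the 19189 genes kept by the filter on low counts. Their read counts ranged from 581 for Irs1 in 1 Ctrl library at 20 weeks to 33073 for Pik3r1 in 1 Ctrl library at 8 weeks.

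In adipocytes, insulin binds its receptor, the receptor phosphorylates insulin receptor substrate (IRS) proteins, and these recruit phosphoinositide 3-kinase (PI3K). Its lipid product leads to activation of the kinase AKT, which phosphorylates and restrains a brake on vesicle movement, so that vesicles carrying the glucose transporter GLUT4 fuse with the plasma membrane. Adipose GLUT4 mRNA is known to be low in obesity and insulin resistance. Most of insulin's control over these proteins acts through phosphorylation and movement, which mRNA does not show.

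OE mice carry extra LTA4H, leukotriene A4 hydrolase, in adipocytes, and Ctrl mice are their controls. Lta4h makes the lipid mediator leukotriene B4. The groups were OE mice at 20 weeks of age, Ctrl mice at 20 weeks, OE mice at 8 weeks and Ctrl mice at 8 weeks, with 4 male mice and 4 libraries each. All ate a diet with 60% of calories from fat from 4 weeks of age, for 16 weeks in the older mice and 4 weeks in the younger, so age and time on the diet cannot be told apart, and no group ate another diet. The promoter that drives the extra gene, the background strain and any sequencing batch are not given in the labels.

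Library totals ranged from 33.6 to 67.6 M counts (M, mega). Lta4h lay between 239 and 286 CPM (a gene's count relative to its library's TMM-scaled total) in OE mice and between 82.4 and 95.4 in Ctrl mice at 20 weeks, and between 251 and 427 in OE mice and 79.4 and 104 in Ctrl mice at 8 weeks, so no library went against its genotype label. Adipocyte markers, perilipin 1 and adiponectin among them, were present in every library. In all, 5 libraries stood apart: OE replicate 1 at 20 weeks, whose adipocyte markers were the highest and macrophage markers the lowest at that age, replicate 1 of OE and of Ctrl at 8 weeks, and OE replicate 2 and Ctrl replicate 4 at 8 weeks, whose epididymal epithelium markers summed to 2423 and 3685 CPM. In the 8-week libraries these markers otherwise reached at most 167 CPM. The libraries of replicate 1 at 8 weeks deviated together from their group means, with a correlation of 0.826 over all genes tested.

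The main difference among these genes was between the ages. With edgeR's quasi-likelihood test, 4 of the 9 genes were lower and 1 was higher at 20 than at 8 weeks in OE mice, and 5 were lower and 0 higher in Ctrl mice, at an adjusted p under 0.05. Over all genes tested, 9.91% were called lower and 13.1% higher in OE mice, and 21.3% lower and 19.6% higher in Ctrl mice. The 9 genes, and the lists used below, were chosen with earlier results of these data known. Shares set beside them therefore describe and do not test. Slc2a4, Irs1, Pik3r1 and Insr, 4 genes, were called lower in both genotypes, Akt2 was called lower in Ctrl mice, and Grb14 was called higher in OE mice. In OE mice the CPM of all 20-week libraries lay below those of all 8-week libraries for 3 of the 9 genes and above them for 1, where 9.5% and 12.9% of all genes did so. In Ctrl mice they lay below for 5 and above for 0, where 14.8% and 18.5% of all genes did so. The median log2 fold change of the 9 genes was −0.36 in OE and −0.54 in Ctrl mice, beside −0.03 and −0.05 over all genes tested. Between OE and Ctrl, 0 of the 9 genes were called at either age. The RNA comes from whole tissue, in which fewer cells of a type and less RNA per cell cannot be told apart.

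**Figure D1:**
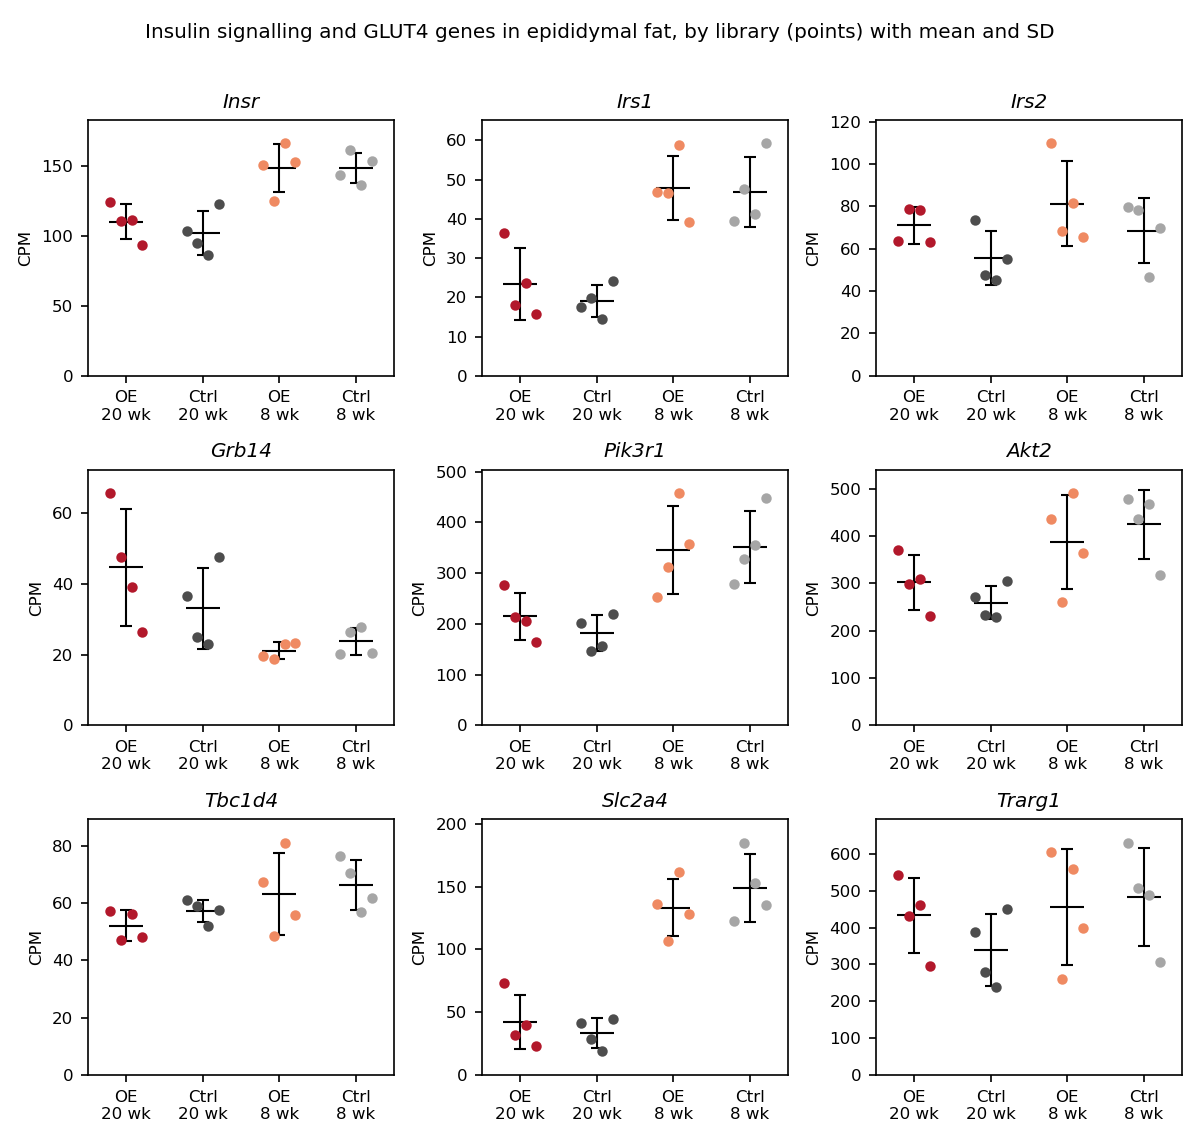
Library-scaled counts (CPM, linear axes from 0) of the 9 genes in each of 16 libraries (points), with the mean and SD of each group of 4. The 20-week libraries of both genotypes lie below all 8-week libraries for Slc2a4, Irs1 and Insr, and Grb14 lies higher in OE mice at 20 weeks.

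Insr (chromosome 8, 3150922 to 3279649, GRCm38.p6, which is mm10) encodes the insulin receptor. OE mice had 124, 111, 112 and 93.6 CPM at 20 weeks against 151, 125, 166 and 153 CPM at 8 weeks. Ctrl mice had 104, 94.9, 86.1 and 123 CPM at 20 weeks against 144, 161, 136 and 153 CPM at 8 weeks. No 20-week library reached the lowest 8-week library of its genotype, although the nearest in OE mice were 124 and 125 CPM. Insr fell 1.35-fold in OE mice (log2 fold change −0.43 ± 0.12 SE, adjusted p = 0.0177) and 1.46-fold in Ctrl mice (−0.54 ± 0.12, adjusted p = 0.00302). The call in OE mice was lost without OE replicate 4 at 20 weeks (adjusted p = 0.0653) or OE replicate 3 at 8 weeks (0.0622). Igf1r, the related receptor for insulin-like growth factor, was not called in OE mice (−0.57 ± 0.26, adjusted p = 0.120) or Ctrl mice (−0.59 ± 0.26, 0.0802).

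The substrates Irs1 (chromosome 1, 82233105 to 82291439) and Irs2 (chromosome 8, 10984681 to 11008929) are the main docking proteins that join the receptor to PI3K. Their promoter windows, from 250 bases before to 50 after the annotated start, are shown because Irs1 was called with age and Irs2, the other main substrate, was not. Sequences are RefSeq's on GRCm38.p6, both from the minus strand, chr1:82291390-82291689 for Irs1 and chr8:11008880-11009179 for Irs2. Capitals mark CACGTG, the E-box palindrome, and TGTTTTG, the reverse complement of CAAAACA, a core of insulin response sequences.

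Irs1: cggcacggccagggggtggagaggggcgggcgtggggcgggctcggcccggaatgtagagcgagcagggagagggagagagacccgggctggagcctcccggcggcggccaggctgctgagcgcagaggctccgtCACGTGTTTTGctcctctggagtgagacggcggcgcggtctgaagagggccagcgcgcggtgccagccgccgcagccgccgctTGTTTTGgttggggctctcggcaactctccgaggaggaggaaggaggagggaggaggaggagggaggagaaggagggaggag

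Irs2: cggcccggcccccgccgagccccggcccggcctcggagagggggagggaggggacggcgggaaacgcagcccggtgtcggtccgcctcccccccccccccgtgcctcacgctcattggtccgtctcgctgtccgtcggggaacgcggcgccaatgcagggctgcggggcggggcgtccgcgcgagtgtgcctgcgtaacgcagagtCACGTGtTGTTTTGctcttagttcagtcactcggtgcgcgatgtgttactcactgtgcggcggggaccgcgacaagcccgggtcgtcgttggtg

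Both windows held both motifs close together. In Irs1 the E-box began at position −115 from the start site and overlapped the first insulin response core at −111, and a further core began at −32. In Irs2 the E-box began at −44 and the core at −37. On either strand, 7.15% of 32851 RefSeq promoter windows of the same length held CACGTG, 6.28% held CAAAACA and 0.408% held both. The windows of 4 other members of the 9, Akt2, Pik3r1, Tbc1d4 and Grb14, held neither motif. No window was available for Slc2a4, Insr or Trarg1, so their promoters were not searched. These motifs were singled out after a search for 6, and the match describes letters only.

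Irs1 was lower at the later age. In OE mice it had 36.3, 18.0, 23.5 and 15.8 CPM at 20 weeks against 46.8, 46.6, 58.9 and 39.2 CPM at 8 weeks. In Ctrl mice it had 17.4, 19.8, 14.6 and 24.3 CPM at 20 weeks against 39.4, 47.5, 41.3 and 59.2 CPM at 8 weeks. The ages did not overlap in either genotype, and the highest 20-week value was that of OE replicate 1. Irs1 fell 2.05-fold in OE mice (−1.03 ± 0.24, adjusted p = 0.00739) and 2.46-fold in Ctrl mice (−1.30 ± 0.24, adjusted p = 0.000977).

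Irs2 did not pass the test with age. It had 63.5, 78.8, 78.3 and 63.3 CPM in OE mice at 20 weeks against 109.7, 68.5, 81.4 and 65.6 CPM at 8 weeks. Ctrl mice had 73.5, 47.8, 45.4 and 55.3 CPM at 20 weeks against 79.9, 78.1, 46.5 and 70.0 CPM at 8 weeks. The ages overlapped in both genotypes, with log2 fold changes of −0.20 ± 0.20 (OE, adjusted p = 0.504) and −0.31 ± 0.20 (Ctrl, adjusted p = 0.239). Per length, the ratio of Irs1 to Irs2 in TPM, the authors' level per length of transcript, was 0.250 ± 0.118 in OE mice at 20 weeks against 0.450 ± 0.097 at 8 weeks, and 0.262 ± 0.069 in Ctrl mice at 20 weeks against 0.526 ± 0.141 at 8 weeks (SD, n = 4 each). The ages did not overlap in Ctrl mice and did in OE mice, where OE replicate 1 reached 0.424 at 20 weeks. Irs3, a substrate gene that works in rodents and is a pseudogene in humans, took the largest share of IRS family TPM in each group on average, 48.3% and 47.2% in OE and Ctrl mice at 20 weeks and 52.5% and 58.5% at 8 weeks. Irs3 fell in Ctrl mice (−1.24 ± 0.24, adjusted p = 0.00121) and was not called in OE mice (−0.67 ± 0.23, adjusted p = 0.0539). The OE value of Irs3 was called in 7 of 25 alternatives, among them the fit without the pair with epididymal transcripts (−0.84, adjusted p = 0.00606). Irs4 had no reads at 20 weeks in either genotype and was not tested.

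Grb14 (chromosome 2, 64912476 to 65022766), an adaptor that binds the active receptor and inhibits its kinase, was the member of the 9 that was called higher. OE mice had 65.5, 47.5, 39.0 and 26.3 CPM at 20 weeks against 19.6, 18.7, 22.9 and 23.3 CPM at 8 weeks. Every OE library at 20 weeks exceeded every OE library at 8 weeks, although the 20-week values spread from 26.3 to 65.5 CPM. Ctrl mice had 36.6, 25.0, 23.0 and 47.6 CPM at 20 weeks against 20.3, 26.3, 27.7 and 20.5 CPM at 8 weeks, and these overlapped. Grb14 rose 2.11-fold in OE mice (1.08 ± 0.26, adjusted p = 0.00952) and was not called in Ctrl mice (0.48 ± 0.26, adjusted p = 0.152). The rise in OE mice was not shown to differ from that in Ctrl mice (interaction 0.60 ± 0.37, 95% interval −0.18 to 1.38, adjusted p = 0.982). Without the 5 libraries that stood apart the OE value was 0.71 ± 0.33 and no longer called (adjusted p = 0.116). With 2 surrogate variables in the fit Grb14 was called in both genotypes, at 1.86 in OE and 1.69 in Ctrl mice (adjusted p = 0.0014 and 0.0320).

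Set against its receptor, Grb14 stood higher at 20 weeks in both genotypes. The ratio of Grb14 to Insr in TPM lay between 1.34 and 2.53 in OE mice at 20 weeks against 0.619 to 0.732 at 8 weeks, and between 1.25 and 1.84 in Ctrl mice at 20 weeks against 0.645 to 0.979 at 8 weeks. Thus every 20-week library held more Grb14 than Insr per length, and every 8-week library held less. Of the related adaptors, Grb10 fell in OE mice (−0.51 ± 0.09, adjusted p = 0.00119) and Ctrl mice (−0.46 ± 0.09, adjusted p = 0.001), and Grb7, at 2.84 CPM or less on average at 20 weeks, was called lower in Ctrl mice (−2.75 ± 0.75, adjusted p = 0.0111) and not in OE mice (−1.03 ± 0.71, adjusted p = 0.308).

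Pik3r1 (chromosome 13, 101680761 to 101768217) encodes the regulatory subunits of PI3K that bind IRS proteins. OE mice had 276, 214, 206 and 165 CPM at 20 weeks against 254, 313, 458 and 358 CPM at 8 weeks, with an overlap between OE replicate 1 of each age. Ctrl mice had 202, 147, 156 and 220.0 CPM at 20 weeks against 279, 328, 356 and 448 CPM at 8 weeks, with no overlap. Pik3r1 fell 1.94-fold in Ctrl mice (−0.96 ± 0.21, adjusted p = 0.00286) and 1.61-fold in OE mice (−0.68 ± 0.21, adjusted p = 0.0292). The OE call was lost in 9 of 25 alternatives, among them no filter on low counts (adjusted p = 0.0505), the 2 groups alone (0.0568) and leaving out any 1 of 5 OE libraries (0.0655 to 0.104). Pik3r2 and Pik3r3, which encode other regulatory subunits, were not called in OE mice (0.07 ± 0.10 and 0.09 ± 0.26) or Ctrl mice (−0.04 ± 0.10 and −0.59 ± 0.26).

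Akt2 (chromosome 7, 27591552 to 27640826) encodes the AKT isoform most tied to glucose uptake. OE mice had 370, 298, 310.3 and 230.4 CPM at 20 weeks against 436, 261, 491 and 364 CPM at 8 weeks, and these overlapped. Ctrl mice had 272, 234, 229 and 304 CPM at 20 weeks against 478, 435, 469 and 318 CPM at 8 weeks, and these did not. Akt2 fell 1.64-fold in Ctrl mice (−0.71 ± 0.20, adjusted p = 0.0116), and in OE mice the value was −0.36 ± 0.20 (adjusted p = 0.196). The lowest 8-week libraries of each genotype were the pair with epididymal transcripts, and without that pair Akt2 was called in OE mice too (−0.51, adjusted p = 0.0268). Akt1, the isoform known for growth, rose in Ctrl mice (0.47 ± 0.12, adjusted p = 0.00633) and was not called in OE mice (0.33 ± 0.12, adjusted p = 0.0535), where 4 of 25 alternatives called it.

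Tbc1d4 (chromosome 14, 101442360 to 101609281) encodes AS160, the Rab GTPase-activating protein that holds GLUT4 vesicles back until AKT phosphorylates it. OE mice had 57.2, 47.1, 56.1 and 48.0 CPM at 20 weeks against 67.4, 48.5, 81.0 and 55.8 CPM at 8 weeks. Ctrl mice had 61.0, 58.8, 51.9 and 57.4 CPM at 20 weeks against 76.3, 70.6, 56.8 and 61.6 CPM at 8 weeks. The ages overlapped in both genotypes and neither passed the test (OE −0.28 ± 0.14, adjusted p = 0.167; Ctrl −0.21 ± 0.14, adjusted p = 0.242). Its 95% intervals, −0.58 to 0.02 and −0.51 to 0.09, leave room for a moderate decrease, and it was called in OE mice without the epididymal pair (−0.39, adjusted p = 0.0444). Tbc1d1, the related protein of muscle, was not called in OE mice (−0.97 ± 0.46) or Ctrl mice (−0.55 ± 0.45).

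Slc2a4 (chromosome 11, 69942286 to 69948216), which encodes GLUT4 itself, had the largest change of the 9. OE mice had 73.2, 32.2, 40.0 and 23.2 CPM at 20 weeks against 136, 106, 161 and 128 CPM at 8 weeks. Ctrl mice had 41.3, 28.6, 19.3 and 44.6 CPM at 20 weeks against 123, 185, 153 and 135 CPM at 8 weeks. No 20-week library came near an 8-week library, and the closest, OE replicate 1, lay at 73.2 CPM. Slc2a4 fell 3.16-fold in OE mice (−1.66 ± 0.32, adjusted p = 0.00263) and 4.46-fold in Ctrl mice (−2.16 ± 0.33, adjusted p = 0.000262). Without OE replicate 1 the OE value was −2.05 ± 0.28. Both calls, like the other falls among the 9, were lost with 2 surrogate variables in the fit (OE −0.70, adjusted p = 0.140; Ctrl −0.57, adjusted p = 0.510), a setting that left 239 genes called lower in OE mice and 52 in Ctrl mice over the whole table.

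Among facilitative glucose transporters, the fall of Slc2a4 went with a smaller share of the family. Slc2a4 held 32.1% ± 11.4 and 28.0% ± 8.5 of the family's summed TPM in OE and Ctrl mice at 20 weeks, against 57.7% ± 6.2 and 60.3% ± 6.7 at 8 weeks (SD, n = 4 each). Slc2a1, the basal transporter GLUT1, was not called (OE 0.09 ± 0.19, Ctrl 0.05 ± 0.19), and the ratio of Slc2a4 to Slc2a1 in TPM was 1.98 ± 1.39 in OE and 1.51 ± 0.79 in Ctrl mice at 20 weeks against 6.14 ± 1.72 and 6.59 ± 1.41 at 8 weeks. The ranges of this ratio did not overlap between ages in either genotype.

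Trarg1 (chromosome 11, 76679873 to 76698664) encodes an adipocyte protein of GLUT4 vesicles that promotes GLUT4 trafficking, and it did not follow Slc2a4. OE mice had 543, 431, 462 and 297 CPM at 20 weeks against 604, 259.6, 558 and 398 CPM at 8 weeks. Ctrl mice had 388, 279, 239.7 and 451 CPM at 20 weeks against 631, 506, 488 and 308 CPM at 8 weeks. The ages overlapped in both genotypes, with values of −0.07 ± 0.29 (OE, adjusted p = 0.884) and −0.51 ± 0.29 (Ctrl, adjusted p = 0.173). As with Akt2, the lowest 8-week values came from the pair with epididymal transcripts, and without it Trarg1 was called lower in Ctrl mice (−0.68, adjusted p = 0.0408). The ratio of Trarg1 to Slc2a4 in TPM was 9.77 ± 2.35 in OE and 9.06 ± 1.15 in Ctrl mice at 20 weeks against 2.86 ± 0.75 and 2.85 ± 1.09 at 8 weeks (SD, n = 4 each). Its lowest 20-week value, 6.41, exceeded its highest 8-week value, 4.40. Other ratios were also computed. Akt2 to Akt1 overlapped between ages in OE mice and not in Ctrl mice, and Insr to Igf1r and Tbc1d4 to Tbc1d1 overlapped in both genotypes. The share of all gene pairs whose ratio separates the ages was not computed.

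**Figure D2:**
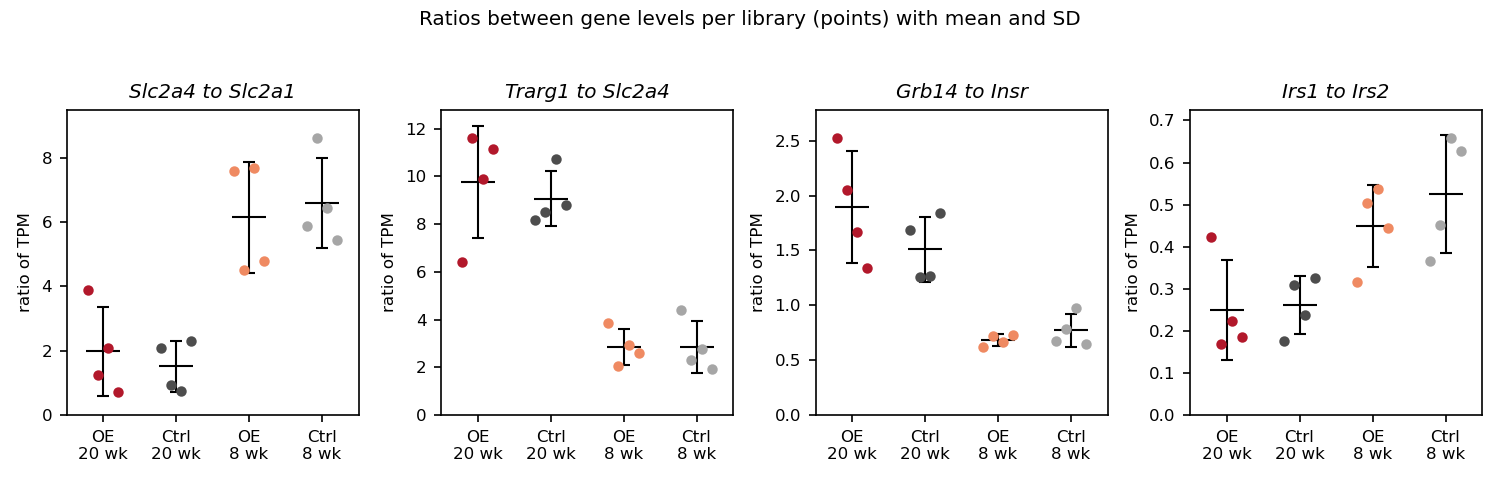
Ratios of TPM (linear axes from 0) between pairs of genes in each of 16 libraries (points), with the mean and SD of each group of 4. Trarg1 to Slc2a4 and Grb14 to Insr lie higher at 20 weeks without overlap, and Slc2a4 to Slc2a1 lies lower without overlap. Irs1 to Irs2 overlaps between ages in OE mice. Other ratios that were computed, and that overlap in at least 1 genotype, are not drawn.

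The order of levels per length changed with age. By mean TPM over all libraries the order was Trarg1 (274), Akt2 (169), Pik3r1 (84.1), Slc2a4 (66.6), Grb14 (32.9), Insr (28.4), Irs2 (21.2), Tbc1d4 (19.6) and Irs1 (7.80). At 8 weeks Slc2a4, at 98.7 ± 9.7 TPM in OE and 109.7 ± 18.7 TPM in Ctrl mice, lay beside Pik3r1 (103 ± 23.4 and 107 ± 29.8), and these neighbours overlapped. At 20 weeks Slc2a4 averaged 32.2 ± 16.5 TPM in OE and 25.8 ± 8.9 TPM in Ctrl mice, below Grb14 (48.4 ± 17.6 and 36.5 ± 12.9). The ranges overlapped between libraries, but within every 20-week library Grb14 exceeded Slc2a4. Irs2 and Tbc1d4 overlapped in each group, and Irs1 was the lowest in all 4.

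No difference between OE and Ctrl mice was detectable in these genes at either age. At 20 weeks Slc2a4 averaged 42.2 ± 21.8 CPM in OE and 33.4 ± 11.7 CPM in Ctrl mice, with a log2 fold change of 0.33 ± 0.31 and a 95% interval of −0.34 to 1.01. That value was −0.07 without OE replicate 1. Grb14 gave 0.43 ± 0.26 (−0.12 to 0.99), Irs2 0.36 ± 0.20 (−0.08 to 0.79), Trarg1 0.35 ± 0.29 (−0.27 to 0.97), Irs1 0.30 ± 0.24, Pik3r1 0.25 ± 0.21, Akt2 0.22 ± 0.20, Insr 0.11 ± 0.12 and Tbc1d4 −0.14 ± 0.14. All 9 overlapped between genotypes, where 2.73% of all genes did not, and all had an adjusted p of 0.996. The intervals therefore still hold sizeable differences for Slc2a4, Grb14 and Trarg1. Values above 0 were not particular to these genes. All 12 adipocyte markers also lay above 0 for OE against Ctrl at 20 weeks (median 0.46, 0 called). Of 10 macrophage markers 0 lay above 0 (median −0.27, 0 called). The part of these marker shifts in the genotype values was not tested.

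At 8 weeks the genotype values ran from −0.17 ± 0.26 for Grb14 and −0.16 ± 0.31 for Slc2a4 to 0.24 ± 0.20 for Irs2, with Insr at 0.00 ± 0.12, and all 9 again overlapped, where 1.24% of all genes did not. Averaged over both ages, Irs2 had the smallest unadjusted p of the 9, 0.0544 (0.30 ± 0.14, adjusted p = 0.9999). For the genotype comparisons, 0.0208% of genes tested were called at 8 weeks, 0.0261% at 20 weeks, 0.0365% for the average and 0 for the interaction, by edgeR. Unadjusted p fell under 0.05 for 0 of the 9 genes in each of these 4 contrasts and for 424, 762, 389 and 650 of all genes tested. The interaction was largest for Grb14, then Slc2a4 (0.50 ± 0.44, 95% interval −0.45 to 1.45), so the age differences were not shown to differ between genotypes.

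**Figure D3:**
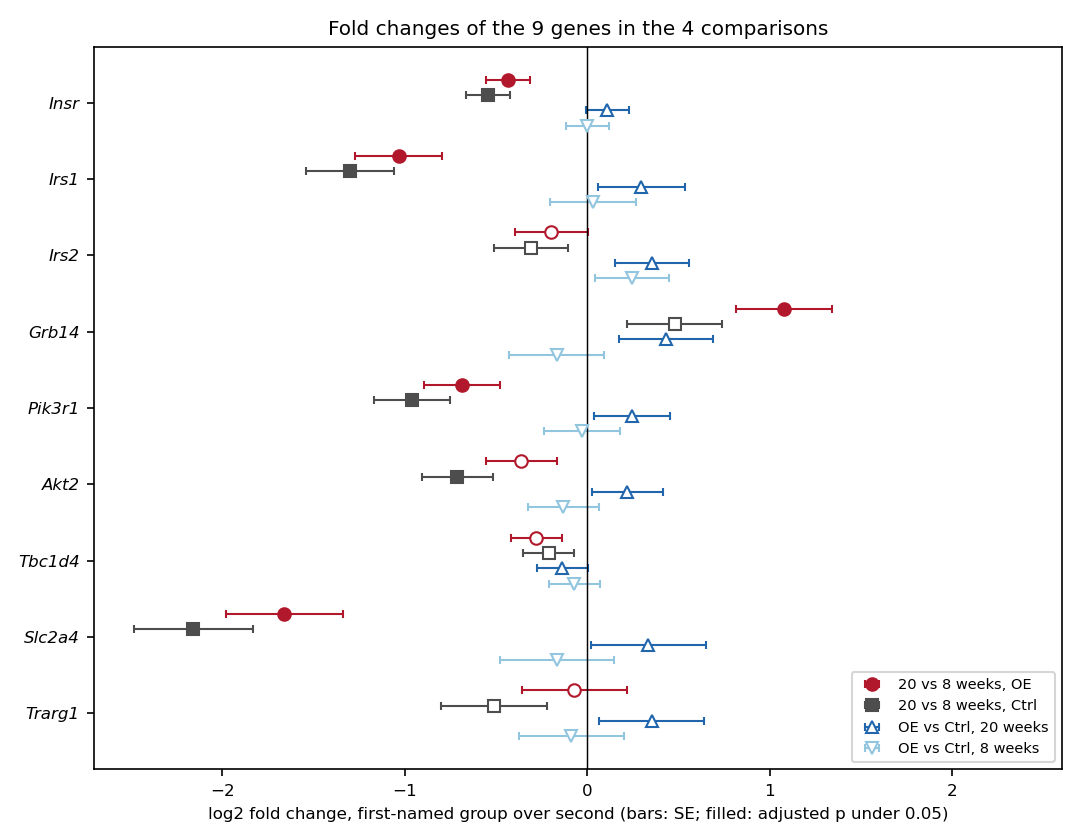
Log2 fold changes of the 9 genes with standard errors, for 20 against 8 weeks in OE and in Ctrl mice and for OE against Ctrl at 20 and at 8 weeks. Filled symbols mark an adjusted p under 0.05 by edgeR, which occurs for 5 genes in each age comparison and for 0 genes between genotypes.

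The wider pathway was read from 85 other genes, 82 of them tested. In OE mice 20 were higher and 17 lower at 20 weeks, and in Ctrl mice 22 were higher and 27 lower, with median log2 fold changes of −0.07 and −0.13. Over all genes tested, 13.1% were called higher and 9.91% lower in OE mice, and 19.6% and 21.3% in Ctrl mice. These shares also stand beside the role counts below, some of which lie near them. Of the pathway genes, 19 were called higher in both genotypes (95% of the OE and 86.4% of the Ctrl calls) and 15 lower in both (88.2% and 55.6%). The same overlap over all genes tested was not computed, so it cannot be said to be particular to the pathway. Between genotypes 0 of 82 were called, and Slc2a12, a glucose transporter gene, had the smallest adjusted p at 20 weeks (0.85 ± 0.21, adjusted p = 0.653).

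Of 9 receptor-level adaptors tested, 2 were higher and 0 lower in OE mice, and 2 were higher and 2 lower in Ctrl mice. The higher ones were Grb2 (OE 0.79 ± 0.13, Ctrl 0.88 ± 0.13), which couples receptors to the RAS pathway, and Cbl (OE 0.80 ± 0.16, Ctrl 0.86 ± 0.16), a ubiquitin ligase. Irs3 was among those that fell in Ctrl mice.

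Of 13 PI3K and AKT kinase genes, 3 were higher and 2 lower in OE mice and 4 higher and 1 lower in Ctrl mice. The largest rises were of the catalytic subunits typical of leukocytes, Pik3cg (OE 1.30 ± 0.18, Ctrl 1.84 ± 0.18) and Pik3cd (OE 1.24 ± 0.26, Ctrl 1.64 ± 0.26).

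Of 12 inhibitors, 5 were higher and 2 lower in OE mice and 6 higher and 4 lower in Ctrl mice. Inpp5d, the lipid phosphatase SHIP of blood cells, rose most (OE 1.26 ± 0.23, Ctrl 1.98 ± 0.24), with Enpp1, a cell surface enzyme that binds the receptor (OE 1.24 ± 0.27, Ctrl 1.86 ± 0.27), and Inppl1, the relative of Inpp5d (OE 0.66 ± 0.11, Ctrl 0.72 ± 0.11). Grb10 was among those that fell in both genotypes.

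Of 19 genes of GLUT4 vesicle traffic, 4 were higher and 3 lower in OE mice and 5 higher and 4 lower in Ctrl mice. Sort1, which encodes the sortilin of these vesicles, fell (OE −0.69 ± 0.15, Ctrl −0.89 ± 0.15), as did Myo1c, a myosin of vesicle fusion (OE −0.65 ± 0.14, Ctrl −0.79 ± 0.14). Lrp1, a large receptor found in GLUT4 vesicles and in macrophages, rose (OE 1.13 ± 0.18, Ctrl 1.57 ± 0.18), as did Dennd4c, which encodes an exchange factor for RAB10 (OE 0.70 ± 0.16, Ctrl 0.93 ± 0.16).

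Of 13 targets of AKT and insulin, 3 were higher and 5 lower in OE mice and 2 higher and 7 lower in Ctrl mice. Glycogen synthase Gys1 (OE −0.89 ± 0.20, Ctrl −1.21 ± 0.20) and hexokinase Hk2 (OE −0.65 ± 0.16, Ctrl −0.94 ± 0.17) fell, while Foxo3 (OE 0.53 ± 0.15, Ctrl 0.97 ± 0.15) and Tsc1 (OE 0.42 ± 0.10, Ctrl 0.55 ± 0.10), a brake on mTORC1, rose. The Foxo3 call in OE mice was lost in 6 of 25 alternatives, among them those without OE replicates 2 or 4 at 20 weeks or OE replicate 1 at 8 weeks (adjusted p = 0.0502, 0.0739 and 0.0540).

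Other transporters and regulators of Slc2a4 moved as follows. Of 8 glucose transporter genes tested, 1 was higher and 3 lower in OE mice and 1 higher and 4 lower in Ctrl mice: Slc2a12 (OE −1.13 ± 0.21, Ctrl −1.97 ± 0.21) and Slc2a8 (OE −0.32 ± 0.09, Ctrl −0.32 ± 0.09) fell, and Slc2a9, a urate transporter, rose (OE 0.84 ± 0.18, Ctrl 0.91 ± 0.18). The Slc2a8 call in OE mice was lost in 5 of 25 alternatives, among them those without OE replicates 2 or 4 at 20 weeks or OE replicate 3 at 8 weeks (adjusted p = 0.0626, 0.0791 and 0.0579). Slc2a5, the fructose transporter GLUT5, was called lower in Ctrl mice (−4.55 ± 1.24, adjusted p = 0.0107) and not in OE mice (−1.77, adjusted p = 0.259). It was scarce, at 0 to 0.201 CPM in Ctrl mice at 20 weeks against 0.159 to 3.44 CPM at 8 weeks, and these overlapped. Of 8 transcription factors known to act on Slc2a4, 2 were higher and 2 lower in OE mice and 2 higher and 5 lower in Ctrl mice. Klf15 fell most (OE −1.69 ± 0.28, Ctrl −1.93 ± 0.28), with Pparg (OE −0.75 ± 0.16, Ctrl −1.13 ± 0.16), and Mef2d rose (OE 0.41 ± 0.07, Ctrl 0.45 ± 0.07). Srebf1 fell in Ctrl mice (−0.88 ± 0.18, adjusted p = 0.00213) and was not called in OE mice (−0.49 ± 0.18, adjusted p = 0.0657), where 5 of 25 alternatives called it.

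**Figure D4:**
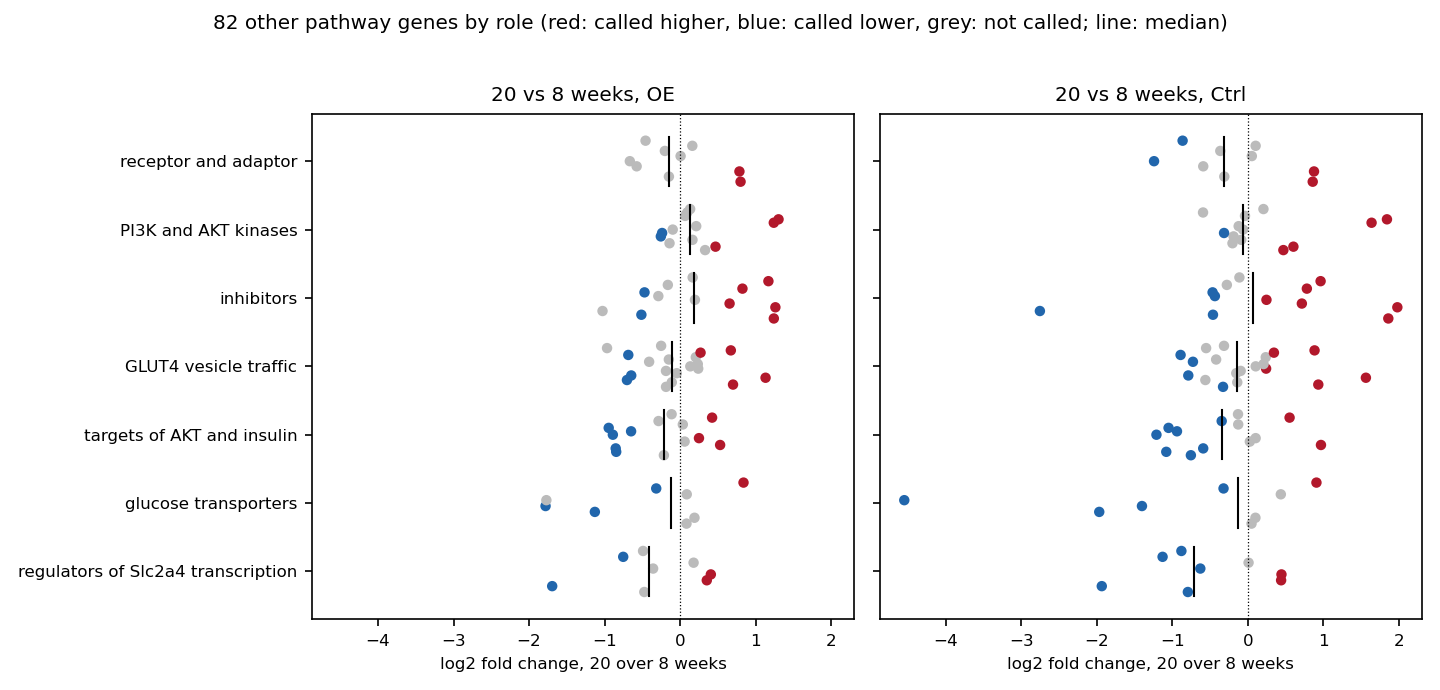
Log2 fold changes, 20 over 8 weeks, of the 82 tested pathway genes by role, in OE mice (left) and Ctrl mice (right); red genes were called higher, blue lower and grey neither, and the line is each role's median. Calls in both directions appear in every role except receptor-level adaptors in OE mice, where 0 of 9 were lower.

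The cell type markers also moved with age. For comparison, 13.1% of all genes tested were called higher and 9.91% lower in OE mice, and 19.6% and 21.3% in Ctrl mice. Of 12 adipocyte markers, 8 were lower and 0 higher in OE mice and 9 lower and 0 higher in Ctrl mice (medians −0.88 and −1.23), and 0 of 12 were at 0 in any library. Their summed level ranged over 14462 to 28733 CPM in OE mice and 11478 to 20908 CPM in Ctrl mice at 20 weeks, against 23310 to 44879 and 28504 to 36145 CPM at 8 weeks. All 10 macrophage markers were higher in both genotypes (medians 1.53 and 2.15), and their sum ranged over 3548 to 8282 CPM in OE mice and 5280 to 8476 CPM in Ctrl mice at 20 weeks, against 1751 to 3121 and 1394 to 2455 CPM at 8 weeks. Skeletal muscle markers, of another tissue rich in GLUT4, summed to 19.4 to 31.4 CPM at 20 weeks and to at most 197 CPM at 8 weeks. Of 6 smooth muscle markers, 5 were lower in each genotype (medians −2.84 and −3.59), and their sum ranged over 204 to 412 CPM in OE mice and 144 to 241 CPM in Ctrl mice at 20 weeks, against 493 to 3903 and 554 to 4000.2 CPM at 8 weeks. The highest 8-week sums of both muscle lists came from the pair with epididymal transcripts. The median smooth muscle sum was 230 CPM in OE and 182 CPM in Ctrl mice at 20 weeks against 689 and 601 CPM at 8 weeks. Of 6 endothelial markers, 0 were called in OE mice and 5 were lower in Ctrl mice (medians −0.42 and −0.75), and of 6 mesothelial markers, 5 were lower in OE mice and 1 in Ctrl mice (medians −1.74 and −0.05). Brown adipocyte markers, 4 genes summing to at most 17.1 CPM in any library, were higher for 3 in OE mice and 2 in Ctrl mice, and of 8 stromal progenitor markers 1 was higher and 1 lower in OE mice and 3 higher in Ctrl mice. The part of these shifts in the age differences was not tested.

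The 9 genes did not all move with the adipocyte markers. Slc2a4 lay below 9 of the 12 markers in both genotypes, and the 3 markers that were lower still were Cfd, Retn and Adrb3. Irs1 lay among them, below 8 in OE and 7 in Ctrl mice. Trarg1 lay above 11 of the 12 in each genotype, and Grb14 above all 12 in both.

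The mean log2 CPM of the 12 markers was also subtracted from each gene's log2 CPM, a comparison chosen after values were seen. Slc2a4 relative to the markers was −4.26 ± 0.20 in OE and −4.11 ± 0.15 in Ctrl mice at 20 weeks against −3.80 ± 0.16 and −3.61 ± 0.25 at 8 weeks (log2, SD, n = 4 each), with no overlap in OE mice and an overlap in Ctrl mice. Irs1 overlapped between ages in both genotypes. Trarg1 was −0.80 ± 0.20 in OE and −0.74 ± 0.07 in Ctrl mice at 20 weeks against −2.08 ± 0.22 and −1.94 ± 0.29 at 8 weeks, and Grb14 was −4.12 ± 0.16 and −4.12 ± 0.11 at 20 weeks against −6.44 ± 0.33 and −6.25 ± 0.23 at 8 weeks. For Trarg1 and Grb14 every 20-week library lay above every 8-week library, and the same held for Insr, Irs2, Akt2 and Tbc1d4. Pik3r1 overlapped in both genotypes. Cfd, Retn and Adrb3 fell 2.64 to 4.34 on the log2 scale and lower the mean at 20 weeks. The marker mean itself was 9.53 ± 0.52 in OE and 9.10 ± 0.45 in Ctrl mice at 20 weeks. At 8 weeks it was 10.84 ± 0.40 and 10.81 ± 0.17. A gene with an unchanged level would therefore also lie higher at 20 weeks on this scale, and the share of all genes that did so was not computed.

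**Figure D5:**
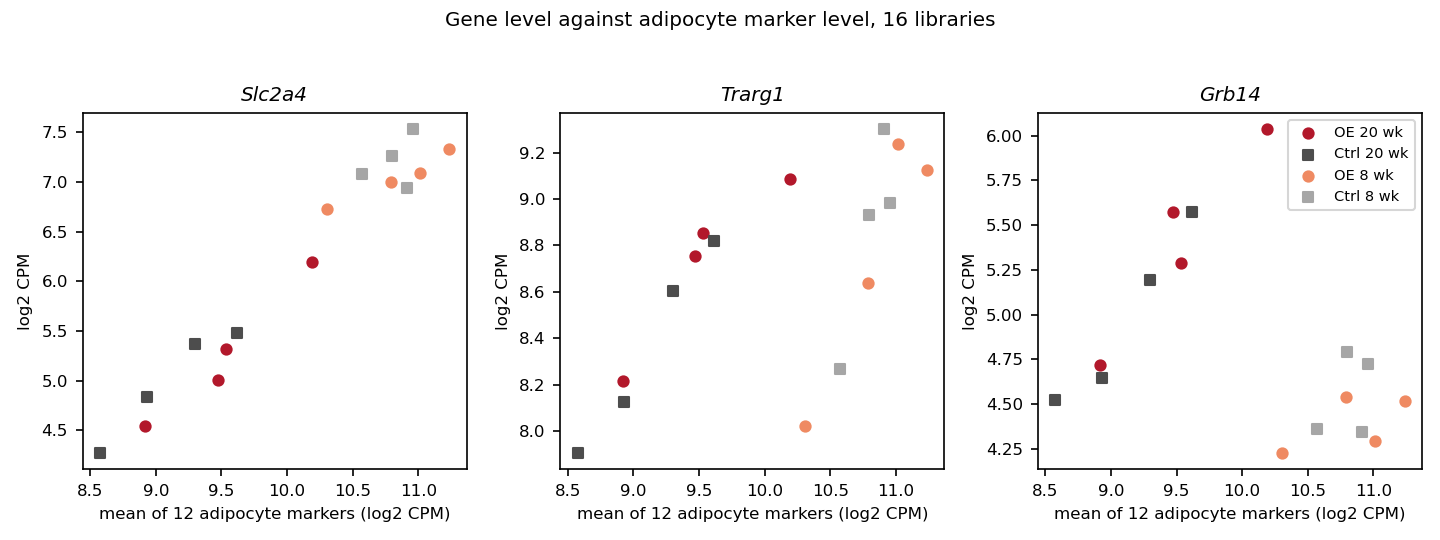
Log2 CPM of Slc2a4, Trarg1 and Grb14 in each of 16 libraries against the mean log2 CPM of 12 adipocyte markers. Relative to the marker mean, Slc2a4 lies lower at 20 weeks, without overlap in OE mice and with overlap in Ctrl mice. Trarg1 and Grb14 lie higher at 20 weeks relative to that mean, as a gene with an unchanged level would. Insr, Irs2, Akt2 and Tbc1d4, which are not drawn, also lie higher without overlap.

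In 3 of the 4 groups the same libraries held most of the extreme values of these genes. At 20 weeks OE replicate 1 had the highest value of its group for 8 of the 9 genes and OE replicate 4 the lowest for 8, where they did so for 36.8% and 28.7% of all genes tested. Among Ctrl mice at 20 weeks, replicate 4 was highest for 7 and replicate 3 lowest for 8, against 28.9% and 25.1% of all genes. At 8 weeks OE replicate 3 was highest for 6 and OE replicate 2 lowest for 6, against 21.7% and 32.6%. Ctrl mice at 8 weeks showed no such pattern, and replicate 1 was highest for 4 of the 9 and lowest for another 4.

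The genes whose profiles were closest to each of the 9 were found by the root mean square (RMS) difference of gene-centred log2 CPM over the 16 libraries. For Slc2a4 these were Rhbdl1 (0.142), Scd1 (0.227), Hsd11b1 (0.237), Slc44a3 (0.240) and Plagl1 (0.241), where the median over all genes was 1.11. Scd1, stearoyl-CoA desaturase, fell by 2.05 ± 0.34 in OE and 2.23 ± 0.34 in Ctrl mice on the log2 scale. Hsd11b1, which regenerates active glucocorticoid, fell by 1.39 ± 0.33 and 1.74 ± 0.33. The closest to Trarg1 were Rarres2, which encodes the adipokine chemerin (0.123), Tmem205 (0.127) and Aldh1l1 (0.128), and to Irs1 Mpp2 (0.135), Dhtkd1 (0.151) and Ehhadh (0.170). Grb14 was closest to Pde7b (0.229), Ccdc3 (0.235) and Alg14 (0.264).

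Insr lay closest to Gphn (0.0664), Ppm1b (0.0826) and Pex3 (0.0865), and Akt2 to Lonp2 (0.0873), Mecr (0.0918) and Dolk (0.0967). Pik3r1 lay closest to Csad (0.147), Tshz2 (0.158) and 2810013P06Rik (0.159), Tbc1d4 to Parp6 (0.101), Faap20 (0.119) and Ctso (0.119), and Irs2 to Lgr4 (0.193), Nol8 (0.193) and Mterf3 (0.201). Among the 9 genes themselves the closest pairs were Akt2 with Insr (0.198) and Akt2 with Trarg1 (0.214).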

How the data were processed

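RNA of epididymal fat from 16 male mice, 1 library per mouse, was counted per gene. Per the labels' protocols, total RNA was isolated with an RNeasy kit and made into stranded mRNA libraries. The authors used bcl2fastq 2.20.0, Trimmomatic, HISAT2 2.1.0 and StringTie 2.1.3b on build mm10, per the submitters' processing notes. The annotation release and the strand setting are not given in the sources used here.

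The deposited read count per gene, a whole number that the authors left unnormalised, was read for all 45777 genes of the table. The 19189 genes kept by the filter were tested. The authors' deposited FPKM values were not tested. The authors' deposited TPM values served only to compare levels between genes. StringTie derives counts from coverage, so these counts may be rounded estimates.

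Counts were fitted in R 4.3.3 with edgeR 4.0.16 after filterByExpr at a minimum count of 10, which kept 19189 genes, and TMM scaling. The quasi-likelihood model, fitted robustly without covariates on all 4 groups (12 residual degrees of freedom), gave 6 contrasts. Benjamini-Hochberg adjustment covered every kept gene. Log2 CPM used a prior count of 2. The fit was also run on counts simulated from its own estimates of spread, with libraries drawn independently. Such counts do not hold libraries that stand apart or deviate together, so they cannot show how the fit handles these. DESeq2 1.42.0 and surrogate variables from sva 3.50.0 were among the alternatives, as were another scaling, no filter, a replicate block and leaving out libraries. Figures were drawn with matplotlib 3.10.9.

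The 9 genes, the pathway list of 85 genes and the marker lists were chosen with earlier results of these data known. Besides the 9 genes, the rule named 11 relatives of them and, in each of 7 role lists, up to 4 genes with the smallest adjusted p for age. For each of the 9 genes it also named the 3 genes of most similar profile, and 5 for Slc2a4. Some genes that the rule named are not reported here. P-values measure the spread between these mice.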

Additional observations from a re-analysis of the deposited data

How the results depend on the processing

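Counts of calls for the 9 genes and the whole pathway list, the fold changes of the 9 genes, and the age differences of the named pathway genes, Scd1 and Hsd11b1 were recomputed in up to 25 alternatives, while values for the role and marker lists were not. Among the recomputed fold changes that passed the test, Akt2 and Akt1 changed sign, both in Ctrl mice for 20 against 8 weeks with 2 surrogate variables in the fit, at 0.13 and −0.051, and the cause was not tested. Some values that did not pass also crossed 0, among them Slc2a4 between genotypes at 20 weeks. With the surrogate variables 0 of the 9 genes were called lower in either genotype, and 1, Grb14, was called higher in Ctrl mice. The pathway list then gave 3 higher and 1 lower in OE mice and 1 higher and 0 lower in Ctrl mice, and 690 and 144 of all genes were called higher in OE and Ctrl mice. Without the 5 libraries that stood apart, 0 of the 9 were higher in OE mice. Leaving out 1 library at a time gave 2 to 5 of the 9 lower in OE mice, with 2 without OE replicate 4 at 20 weeks or OE replicate 3 at 8 weeks, and 5 in every case in Ctrl mice. The pathway list then ranged over 15 to 24 higher and 10 to 22 lower in OE mice and over 19 to 23 higher and 24 to 29 lower in Ctrl mice, with 11, 11 and 10 lower in OE mice without OE replicates 2 or 4 at 20 weeks or OE replicate 3 at 8 weeks. Slc2a4 and Irs1 kept their calls in both genotypes in every alternative but the surrogate variables. Between genotypes, 0 of the 9 genes were called in any alternative. Replicate numbers did not pair the mice in general: same-numbered libraries deviated together with correlations of −0.571 to 0.826. The highest was that of OE and Ctrl replicate 1 at 8 weeks, where libraries of other numbers reached at most −0.109. For every other same-numbered pair, some library of another number correlated more. The replicate block left 3 of the 9 lower in OE mice, with Pik3r1 at −0.67 (adjusted p = 0.0579), and 5 in Ctrl mice. Each of these 9 genes had 581 counts or more in every library. Whether depth or the spread between mice limits them more was not tested.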
